A study of Mus musculus with 2 samples.

Results

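Collagen is built inside the cell, secreted as procollagen and cross-linked outside it, and 10 genes for these steps were followed here: Plod1, Plod2, P4ha1, Serpinh1, Fkbp10, Bmp1, Pcolce, Lox, Loxl1 and Loxl2. They were chosen by name, as the rows of the deposited matrices whose symbol is on this list, and all 10 were found among 34285 genes and had UMIs (unique molecular identifiers, 1 per captured transcript) in both libraries. The libraries were 2, from mandibular first molars and the tissue around them of C57BL/6J mice at PN15.5 (postnatal day), by droplet single-cell RNA sequencing. Lipo-Clo mice had received liposomes filled with clodronate, a drug that kills phagocytes, at 40 μg/g into the peritoneum on 4 occasions (PN3.5, PN6.5, PN9.5, PN12.5), and Lipo-PBS mice had received vehicle liposomes on the same days. There was 1 library per condition and the number of mice in each was not stated in the sources used here, so no test between the conditions was possible. Levels are given as counts per 1000000 UMIs (CPM) of all cells of a kind summed, with exact 95% Poisson intervals, and ratios as log2 of Lipo-Clo over Lipo-PBS with exact 95% intervals. These intervals cover counting error only, and not the spread between mice.

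In the endoplasmic reticulum, prolyl 4-hydroxylases (P4ha1 is a catalytic subunit) hydroxylate the prolines that make the triple helix stable, and lysyl hydroxylases (Plod1 in the helix, Plod2 mainly in the telopeptides at its ends) hydroxylate lysines that later take part in cross-links. Serpinh1 (HSP47) is a chaperone that binds the folded triple helix, and Fkbp10 (FKBP65) is a prolyl isomerase needed for telopeptide lysyl hydroxylation. Outside the cell Bmp1 removes the C-propeptide of procollagen, Pcolce enhances that cleavage, and the oxidases Lox, Loxl1 and Loxl2 convert lysines into the aldehydes from which cross-links form, Loxl1 being best known from elastic fibres. Dentin, bone, cementum and the periodontal ligament (PDL) all consist largely of fibrillar collagen, so that a tooth root in formation places these genes in several matrix-forming cell types at once.

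After filtering, 8254 Lipo-Clo cells (26852424 UMIs, median 2567) and 8261 Lipo-PBS cells (25831678 UMIs, median 2678) were kept, and 30 barcodes occurred in both libraries. Mitochondrial UMIs were 0.370% of the total in Lipo-Clo and 1.73% in Lipo-PBS. Macrophage-like cells, the kind the drug depletes, were 127 of the Lipo-Clo cells and 187 of the Lipo-PBS cells. An unnamed cluster with both macrophage and dendritic markers (led by Cd74, S100a9 and Lyz2) had 387 and 173. It also carried markers of a further class, which scored highest, so it is not read as macrophages or dendritic cells. Dental mesenchyme-like cells, which carried the collagen markers Col1a1, Col1a2 and Col3a1 at 6.51% and 6.37% of their UMIs, numbered 4093 and 3890.

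Members that differed between the libraries in opposite directions are shown first by the sequence before their transcription start. P4ha1 was lower and Serpinh1 was higher in Lipo-Clo mesenchyme, and their RefSeq promoters (assembly GRCm38.p6, 250 bases up to the start) are printed 5′ to 3′ on the gene's strand. P4ha1 lies on the plus strand at chr10:59323046-59323295 and Serpinh1 on the minus strand at chr7:99353240-99353489. Capitals mark ACGTG and GCGTG on either strand, the core letters of the hypoxia response element.
P4ha1: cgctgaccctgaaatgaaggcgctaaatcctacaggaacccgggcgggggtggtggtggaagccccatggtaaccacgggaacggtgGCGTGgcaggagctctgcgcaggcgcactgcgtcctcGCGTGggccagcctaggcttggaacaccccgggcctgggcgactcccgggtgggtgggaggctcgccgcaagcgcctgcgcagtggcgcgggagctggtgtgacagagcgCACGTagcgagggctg
Serpinh1: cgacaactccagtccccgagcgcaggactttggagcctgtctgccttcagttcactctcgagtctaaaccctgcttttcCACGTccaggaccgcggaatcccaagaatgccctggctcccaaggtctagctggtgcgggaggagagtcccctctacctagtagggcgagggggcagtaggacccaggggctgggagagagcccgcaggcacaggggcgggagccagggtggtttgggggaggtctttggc
P4ha1 held 1 ACGTG and 2 GCGTG, and the nearest of them began 16 bases before the start. Serpinh1 held 1 ACGTG and 0 GCGTG. At least 1 of these letter runs was present in 38.6% of 32851 mouse promoters of the same length (ACGTG in 16.6%, GCGTG in 28.2%), so that their presence sets neither gene apart. Of the 10 members, 4 had a promoter in the RefSeq table, and Plod1 and Pcolce held 1 GCGTG each.

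The first question was where in the molar these genes were read. Dental mesenchyme held most of the UMIs of every member in both libraries, from 85.7% of all Lox UMIs in Lipo-Clo to 52.9% of all Plod1 UMIs in Lipo-PBS. Of the UMIs of all genes it held 13388559 of 26852424 in Lipo-Clo and 12792180 of 25831678 in Lipo-PBS. The lowest member share, that of Plod1, thus lay close to the share of all genes together. Mesenchyme had the highest level of any named class for 7 of 10 members in Lipo-Clo and 9 of 10 in Lipo-PBS. The exceptions were Plod1 in both libraries, and P4ha1 and Bmp1 in Lipo-Clo. P4ha1 was highest in Lipo-Clo cycling cells at 83.8 CPM (67.3 to 103), an interval that held the 77.4 CPM of Lipo-Clo mesenchyme.

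**Figure D1:**
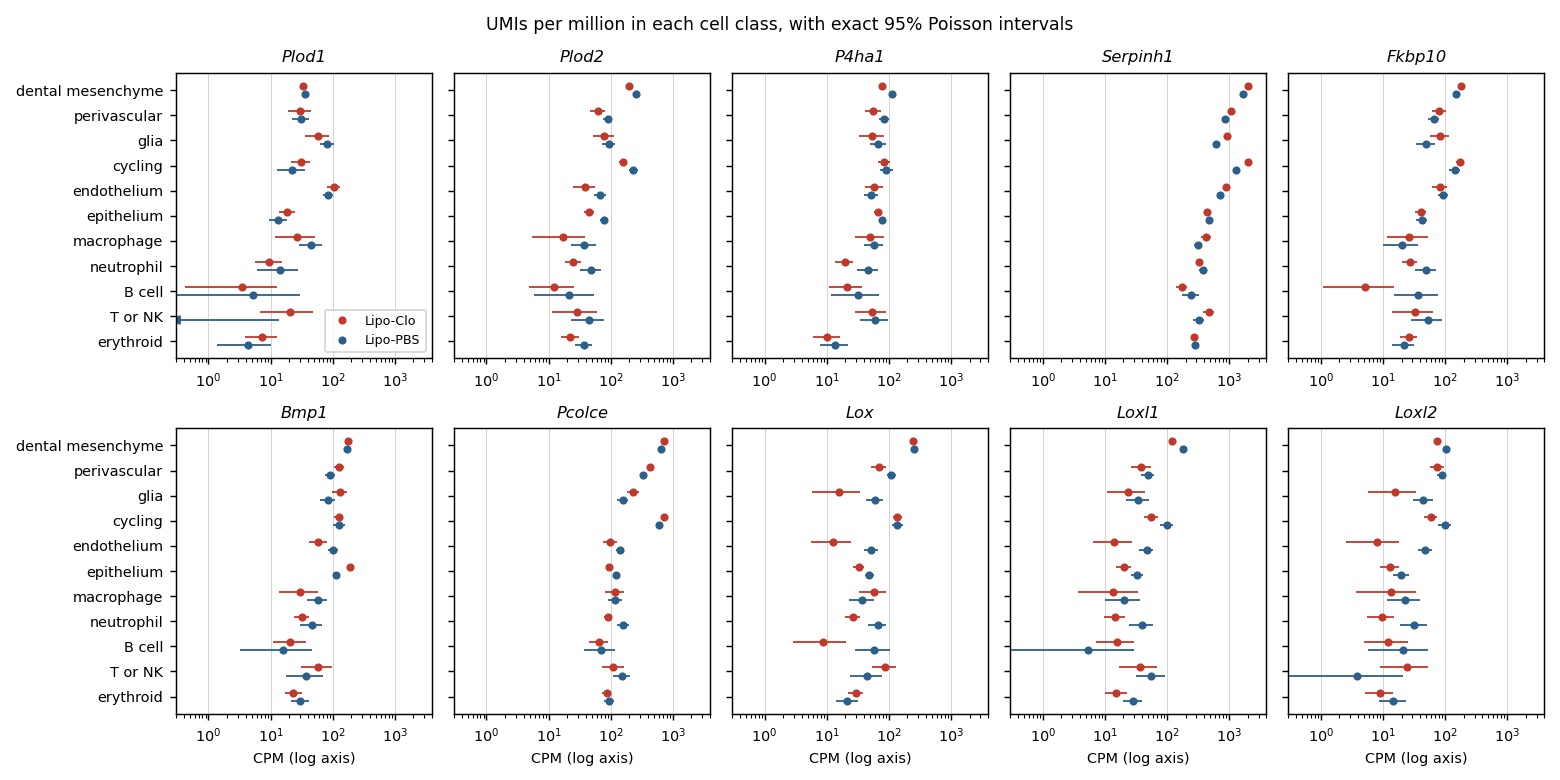
Level of each member (CPM, log axis) in the 11 named cell classes of Lipo-Clo (red) and Lipo-PBS (blue), with bars for exact 95% Poisson intervals and a triangle at the left edge for a level of 0. Dental mesenchyme lies at the right of most panels, while Plod1 is highest in endothelium and Bmp1 in Lipo-Clo epithelium.

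Plod1 was an endothelial and glial transcript as much as a mesenchymal one. Its level was 103 CPM (79.8 to 132) in Lipo-Clo and 84.8 CPM (69.6 to 102) in Lipo-PBS endothelium, and 57.1 and 82.2 CPM in glia. Mesenchyme had 33.2 CPM (30.1 to 36.4) and 36.1 CPM (32.9 to 39.6), below the endothelial interval in both libraries, whereas the intervals of endothelium and glia overlapped in both. Both endothelial clusters carried it, with 110 and 105 CPM in the one led by Cdh5, Flt1 and Emcn and 71.1 and 69.4 CPM in the one led by the lymphatic gene Ccl21a. Of the 65 endothelial Plod1 UMIs in Lipo-Clo, 57 were in the Cdh5 cluster, so the Lipo-Clo value of the Ccl21a cluster rests on few UMIs. The other lysyl hydroxylase, Plod2, had the reverse order, with 194 CPM (187 to 202) in Lipo-Clo and 254 CPM (246 to 263) in Lipo-PBS mesenchyme and only 38.2 and 67.6 CPM in endothelium.

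Serpinh1 was present across the stromal and vascular classes. It stood at 2040 and 1672 CPM in mesenchyme, at 1060 and 855 CPM in perivascular cells, at 919 and 624 CPM in glia, and at 897 and 712 CPM in endothelium. In Lipo-Clo the intervals of glia and endothelium overlapped each other, and that of perivascular cells overlapped glia. The chaperone was found in 91.4% and 91.3% of mesenchymal cells, against 29.9% and 38.4% of erythroid cells, which should lack it. With every cell thinned to 1000 UMIs the shares were 81.4% and 74.4% in mesenchyme and 15.0% and 20.1% in erythroid cells, whose median depths (3503 and 3075 UMIs) were above those of mesenchyme (2785 and 2940.5). Bmp1 was found in 39.3% and 38.1% of mesenchymal cells (17.2% and 15.8% thinned) against 8.58% and 9.6% of erythroid cells (2.00% and 4.10% thinned).

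Bmp1 had an epithelial level close to its mesenchymal one in Lipo-Clo. Epithelium had 194 CPM (177 to 211) in Lipo-Clo and 113 CPM (100 to 126) in Lipo-PBS, beside 178 and 172 CPM in mesenchyme, and the Lipo-Clo intervals of the 2 classes overlapped. Within epithelium it was highest in the cluster led by the enamel matrix genes Ambn, Odam and Amtn, with 259 CPM (236 to 285) and 201 CPM (173 to 233), and lower in the keratinocyte-like cluster led by Lgals7, Krt14 and Krt5, with 82.9 and 68.1 CPM. The log2 ratio in the summed epithelium was 0.78 (0.57 to 0.99). The Ambn cluster had 605 and 336 cells (Lipo-Clo first) and the Lgals7 cluster 180 and 380, so the mixture of the class moved with the ratio, and in each cluster taken alone the 2 libraries were closer than in the sum.

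Free RNA from broken cells was assumed to give every droplet a little mesenchymal RNA, in the proportions of the mesenchyme itself. Whether the free RNA held exactly these proportions was not tested. Member UMIs were therefore also set against collagen UMIs (Col1a1, Col1a2 and Col3a1 together) of the same class. In erythroid cells the interval held the mesenchymal value for 8 of 10 members in both libraries, in B cells for 7 and 10, and in neutrophils for 6 and 8, so that most levels in these classes are read as background. In Lipo-PBS B cells (60 cells, 46 Serpinh1 and 13 Pcolce UMIs) few UMIs made the intervals wide, so holding the value shows little there. Among erythroid cells, B cells and neutrophils, members above the mesenchymal value in both libraries were P4ha1 in neutrophils (2.22 and 2.76 UMIs per 1000 collagen UMIs) and Serpinh1 in erythroid cells (36.1 and 29.9). In Lipo-Clo neutrophils Plod1, Serpinh1 and Bmp1 were above it too. P4ha1 was also above it in T or NK cells of both libraries, as were P4ha1 and Plod1 in macrophages of both. Those levels are given without that reading. Further above it stood Plod1 in endothelium, at 14.9 and 6.61 UMIs per 1000 collagen UMIs against 0.510 and 0.567 in mesenchyme, Serpinh1 in endothelium, at 129 and 55.5 against 31.3 and 26.2, and Bmp1 in epithelium, at 18.5 and 8.84 against 2.73 and 2.69. P4ha1 in epithelium had 6.37 and 6.18 against 1.19 and 1.78, and Loxl2 in perivascular cells had 4.98 and 5.77 against 1.15 and 1.63. Loxl2 was accordingly at a similar level in perivascular cells (74.6 and 88.3 CPM) and in mesenchyme (74.6 and 104 CPM), with overlapping intervals in both libraries. Lox and Loxl1 in epithelium were at the mesenchymal proportion in both libraries, and their low levels there (32.8 and 48.8 CPM for Lox) are likewise read as background.

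**Figure D2:**
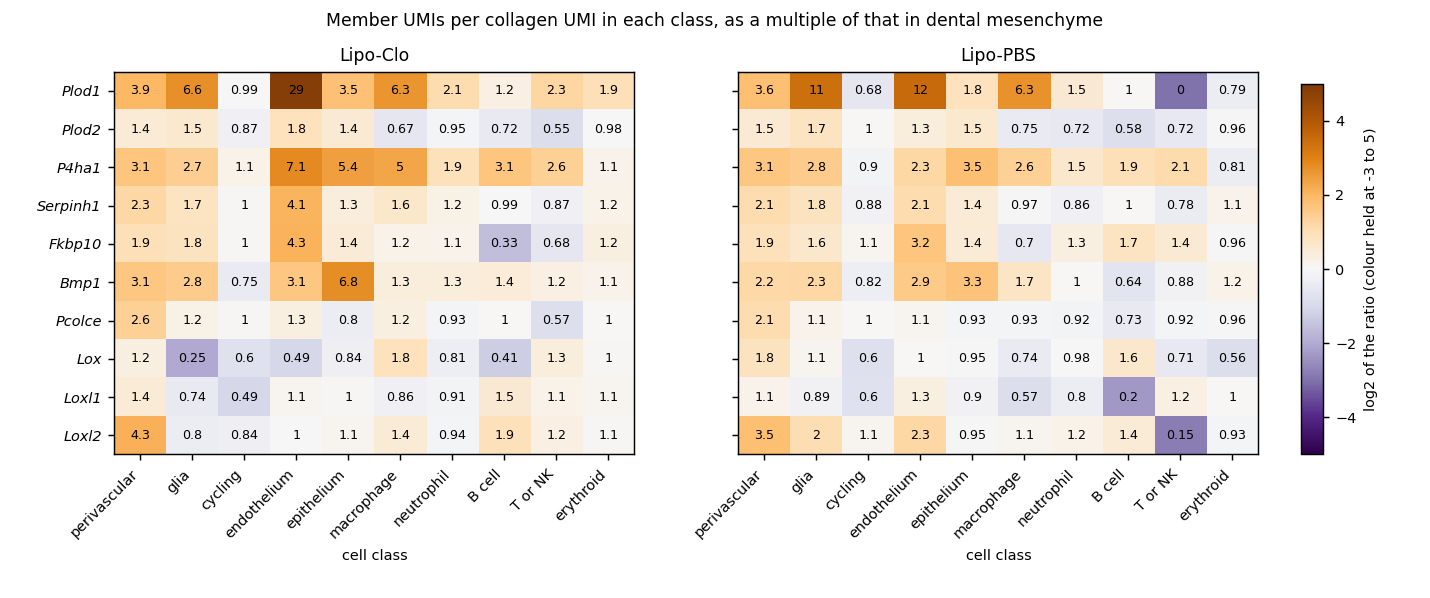
Member UMIs per collagen UMI in each class outside the mesenchyme, divided by the same value in dental mesenchyme of the same library. A value of 1 means the mesenchymal proportion, as free RNA was assumed to give. Lipo-Clo is on the left and Lipo-PBS on the right. Erythroid columns stay near 1 for most members, while endothelium for Plod1 and Serpinh1, and epithelium for Bmp1 and P4ha1, lie above it in both libraries.

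The mesenchyme fell into 10 states, each called by its leading genes and, where at least 3 fixed markers led it, by the cell type they mark. They were fibroblast-like states led by Mfap5, Clec3b and Col14a1 (1197 cells) and by Col14a1, Cd34 and Eln (397 cells), PDL-like states led by Tnn, Aspn and Crispld2 (1185 cells) and by Edil3, Angptl1 and Aspn (779 cells), an osteoblast- or cementoblast-like state led by Ibsp, Smpd3 and Bglap2 (1101 cells), a dental follicle-like state led by Dio2, Grem1 and Moxd1 (961 cells), papilla- or pulp-like states led by Ctnnd2, Slc20a2 and Cntn4 (767 cells) and by Pcp4, Lrrc4c and Kcnip4 (659 cells), an odontoblast-like state led by Bglap, Dspp and Bglap2 (222 cells), and an unnamed state led by Mmp13, Sfrp2 and Tagln (715 cells). Each is called below by its first gene. Levels by state are of both libraries summed unless 2 values are given, in the order Lipo-Clo and Lipo-PBS.

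The members did not share 1 pattern over the states. Plod2, P4ha1, Serpinh1, Fkbp10 and Pcolce were highest in the mineralising Bglap state, in which collagen took 12.6% of UMIs, while Plod1, the oxidases and Bmp1 were highest in fibroblast-like or follicle-like states.

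Plod2 had the steepest order of the intracellular enzymes. In the sum the Bglap state had 654 CPM (610 to 699), followed without overlap by the Ibsp state with 312 CPM (294 to 331). The Edil3 state came next without overlap, with 258 CPM (238 to 280). The Ctnnd2 state was lowest with 79.6 CPM, 8.21-fold below the Bglap state. The Bglap and Ibsp states also led in each library. Behind them came the Dio2 state in Lipo-Clo (210 CPM) and the Tnn state in Lipo-PBS (305 CPM, 279 to 332). The Edil3 state was below these, with overlapping intervals, at 202 and 278 CPM. In Lipo-PBS the Ibsp interval (315 to 369) overlapped that of the Tnn state. P4ha1 kept the same leading pair with a shallower slope, at 181 CPM (159 to 206) in the Bglap state and 134 CPM (122 to 146) in the Ibsp state, and was lowest in the Pcp4 state at 58.8 CPM. Plod1 was highest in the Col14a1 state at 64.2 CPM (49.2 to 82.3), but its interval overlapped those of the next states (49.7 CPM in the Bglap state and 46.3 CPM in the Edil3 state), so their order was not resolved.

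The chaperones were highest in collagen-rich states as well. Serpinh1 was at 2597 CPM (2509 to 2686) in the Bglap state, 2424 CPM (2379 to 2468) in the Tnn state and 2221 CPM (2172 to 2272) in the Dio2 state, and at 1007 CPM in the Ctnnd2 state. The first of these intervals did not overlap in the sum. In single libraries the Bglap and Tnn states overlapped in Lipo-PBS, and the Tnn and Dio2 states in Lipo-Clo. Fkbp10 was at 292 CPM (263 to 323) in the Bglap state and 220 CPM (207 to 234) in the Tnn state, and at 95.4 CPM in the Pcp4 state. Pcolce, the secreted enhancer, had the same first and second state, at 1296 CPM (1235 to 1360) and 952 CPM (925 to 981), and was at 371 CPM in the Ctnnd2 state.

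Per collagen UMI the order turned round. The 10 members together had 45.7 UMIs per 1000 collagen UMIs in the Bglap state and 45.7 in the Tnn state, but 161 in the Ctnnd2 state and 166 in the Pcp4 state, in which collagen was only 1.20% and 1.30% of UMIs. Serpinh1 alone had 20.6 in the Bglap state and 93.1 in the Pcp4 state. Collagen UMIs thus varied more between the states than Serpinh1 UMIs did.

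The oxidases were highest in other states. Loxl1 was at 576 CPM (550 to 603) in the Mfap5 state and 372 CPM (334 to 412) in the Col14a1 state, the fibroblast-like pair in which the elastin gene Eln is among the leading genes, then at 270 CPM (249 to 292) in the Edil3 state, and at 22.5 CPM (15.1 to 32.4) in the Bglap state, 25.5-fold below the first. Lox was at 654 CPM (627 to 681) in the Dio2 state, 396 CPM (371 to 423) in the Edil3 state and 333 CPM (303 to 367) in the Bglap state, and at 28.4 CPM in the Pcp4 state. The Dio2 state lay clear of the others in each library, while the Edil3 and Bglap states were apart in the sum but overlapped in each library. The Bglap state therefore carried Lox and nearly no Loxl1. Loxl2 was flatter, at 143 CPM (130 to 157) in the Mfap5 state, 133 CPM (111 to 158) in the Col14a1 state and 120 CPM (109 to 132) in the Ibsp state, whose neighbouring intervals overlapped, and in Lipo-PBS alone the Col14a1 state came first (139 CPM, against 134 CPM in the Mfap5 state). Bmp1 was highest in the Mfap5 state at 306 CPM (287 to 326), with the Bglap state (211 CPM) and the Dio2 state (209 CPM) overlapping behind it.

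**Figure D3:**
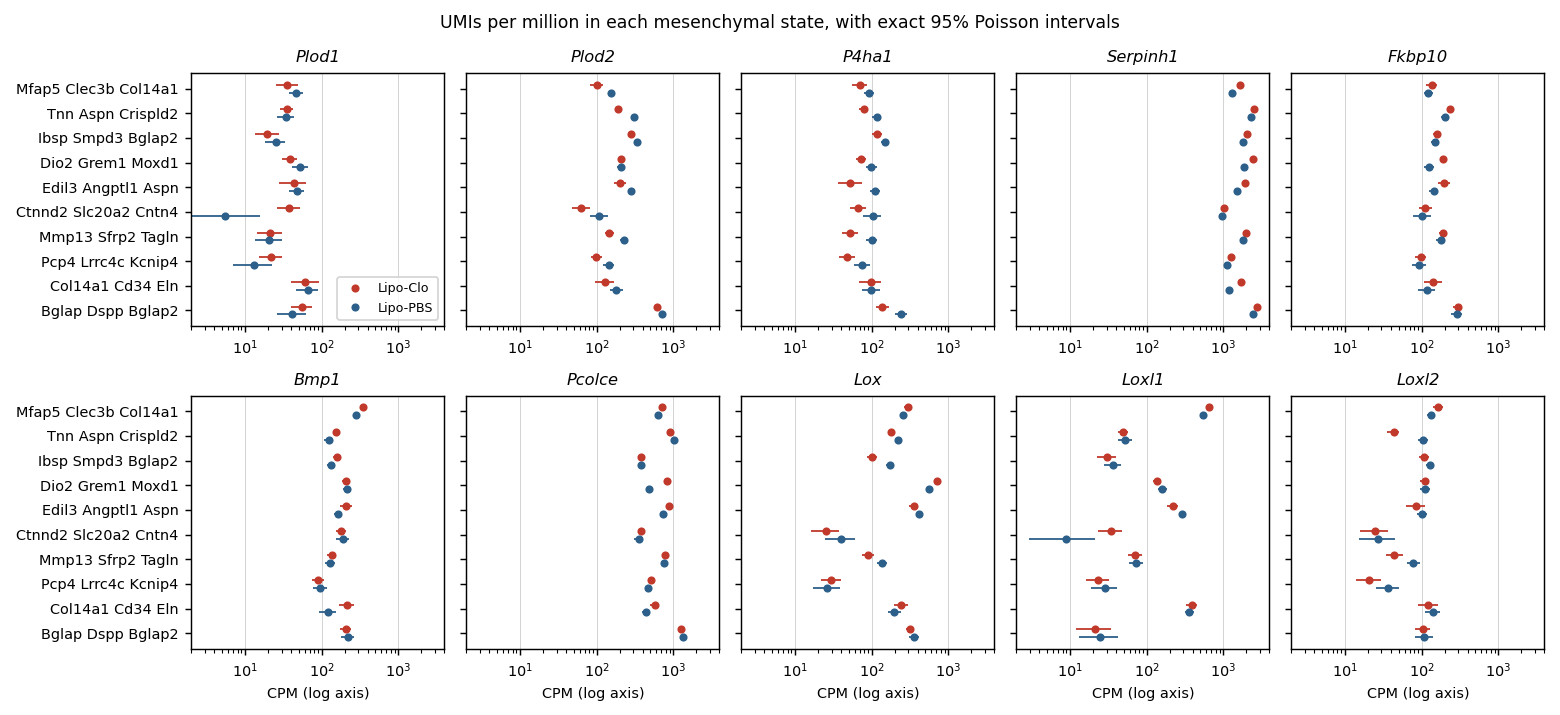
Level of each member (CPM, log axis) in the 10 mesenchymal states, Lipo-Clo in red and Lipo-PBS in blue, with exact 95% Poisson intervals. Plod2, P4ha1, Serpinh1, Fkbp10 and Pcolce reach their highest levels in the Bglap state at the bottom, Lox in the Dio2 state, and Loxl1 and Bmp1 in the Mfap5 state at the top.

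As a description of likeness, Pearson's r of log2(CPM + 10) over the 10 states, which share libraries, was taken with each of the 4696 mesenchymal genes in use, meaning genes that 10% or more of mesenchymal cells held in 1 library or the other. For Serpinh1 the highest were P3h1 (a prolyl 3-hydroxylase, r = 0.98), Gorasp2 (0.98) and Ckap4 (0.97), and for Fkbp10 they were Serp1 (0.96), P3h1 (0.95) and Sec13 (0.94). Plod2 had Slc35a2, Hdlbp and Col1a1 (0.93, 0.93 and 0.92), P4ha1 had Uso1, Ckb and Itm2b (0.93, 0.90 and 0.90), and Plod1 had Nav1, Rabac1 and Gm15417 (0.90, 0.90 and 0.89). Lox had Nupr1, Creb3 and Selenok (0.94, 0.94 and 0.93), Loxl1 had Lpl, Nnmt and Septin8 (0.97, 0.96 and 0.96), Loxl2 had Nupr1, Dazap2 and Fgfr1op2 (0.95, 0.94 and 0.92), Bmp1 had Sirt2, Camk2d and Dag1 (0.89, 0.89 and 0.88), and Pcolce had Cdc16, Yif1b and Serp1 (0.94, 0.94 and 0.91).

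The second question was how the genes stood in the mesenchyme of Lipo-Clo against Lipo-PBS mice. Loxl1, P4ha1, Loxl2 and Plod2 were lower in Lipo-Clo past the limit used here for counting (a log2 ratio of 0.32 either way), while Serpinh1, Fkbp10 and Pcolce were higher by less than that. That is 4 of 10 members lower, beside 18.2% of the 4696 genes in use, and 0 of 10 higher, beside 14.5%. The median log2 ratio was -0.10 over the members and -0.01 over all genes in use. The call for Plod2 was lost with doublets kept (-0.31), at Leiden resolution 2 (-0.32, inside the limit before rounding) and with an unnamed collagen-rich cluster counted as mesenchyme (-0.26), and those for Loxl1 and Loxl2 at equal mixture of states, given below.

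Among the hydroxylases, Plod2 had 2604 UMIs in Lipo-Clo and 3253 in Lipo-PBS (194 and 254 CPM), a log2 ratio of -0.39 (-0.46 to -0.31). P4ha1 had 1036 and 1450 UMIs (77.4 and 113 CPM), a log2 ratio of -0.55 (-0.67 to -0.43). Plod1 had 444 and 462 UMIs (33.2 and 36.1 CPM) and a log2 ratio of -0.12 (-0.31 to 0.07), so no difference was detectable at this depth.

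Both chaperones among the members were higher. Serpinh1 had 27308 UMIs in Lipo-Clo and 21392 in Lipo-PBS (2040 and 1672 CPM), a log2 ratio of 0.29 (0.26 to 0.31). Fkbp10 had 2416 and 1906 UMIs (180 and 149 CPM), a log2 ratio of 0.28 (0.19 to 0.36). Bmp1 had 2382 and 2196 UMIs (178 and 172 CPM) with a log2 ratio of 0.05 (-0.03 to 0.14), and Pcolce had 9776 and 8396 UMIs (730 and 656 CPM) with one of 0.15 (0.11 to 0.20).

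Of the oxidases, Loxl1 had the lowest ratio of all members, with 1617 UMIs in Lipo-Clo and 2364 in Lipo-PBS (121 and 185 CPM) and a log2 ratio of -0.61 (-0.71 to -0.52). Loxl2 had 999 and 1328 UMIs (74.6 and 104 CPM) and a log2 ratio of -0.48 (-0.60 to -0.36). Lox had 3249 and 3272 UMIs (243 and 256 CPM) and a log2 ratio of -0.08 (-0.15 to -0.01).

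The mixture of states moved with these sums. The Mfap5 state, where Loxl1 is highest, held 428 of the Lipo-Clo and 769 of the Lipo-PBS mesenchymal cells, the Edil3 state 212 and 567, and the Tnn state 782 and 403. The states were then given the same weights in the 2 libraries, each the mean of the state's UMI shares in them (equal mixture). The log2 ratio of Loxl1 was then 0.032, against -0.29 for Loxl2, -0.42 for Plod2 and -0.57 for P4ha1. It was 0.23 for Serpinh1, 0.23 for Fkbp10, 0.19 for Bmp1 and -0.0046 for Lox. In this setting 2 of 10 members were lower past the limit. The low Loxl1 of Lipo-Clo mesenchyme was therefore not present at equal mixture, whereas those of P4ha1 and Plod2 were.

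**Figure D4:**
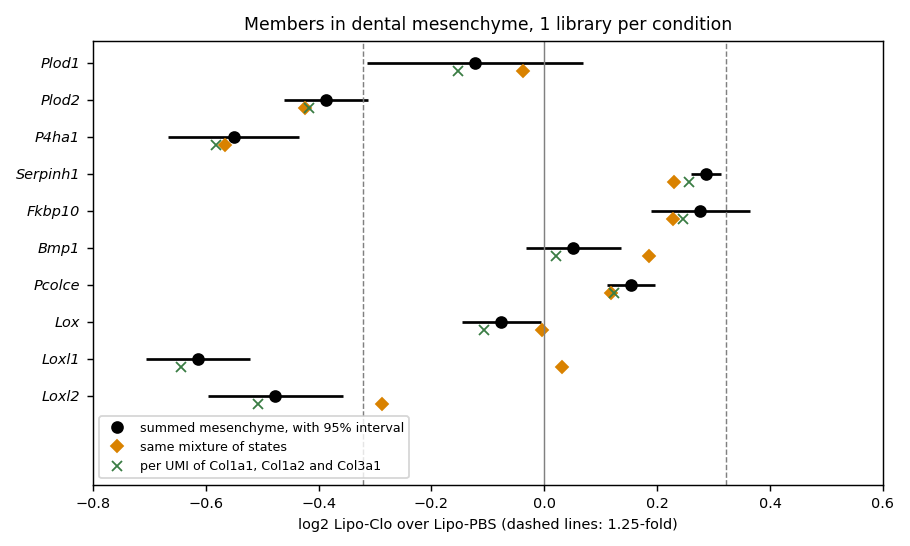
Log2 ratio of Lipo-Clo over Lipo-PBS of each member in the summed mesenchyme (black, with exact 95% intervals). Orange marks the ratio with the same state weights in both libraries, and green the ratio per collagen UMI. P4ha1 and Plod2 stay left of the dashed limit at -0.32 in all 3, while Loxl1 moves from -0.61 to 0.032 at equal mixture.

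Within single states the same members kept their side. P4ha1 was lower in Lipo-Clo in 10 of 10 states and past the limit in 9, from -1.06 (52.9 and 110 CPM) in the Edil3 state to -0.03 in the Col14a1 state. Plod2 was lower in 9 of 10 and past that limit in 7, reaching -0.79 in the Ctnnd2 state and -0.70 (187 and 305 CPM) in the Tnn state, with 0.01 in the Dio2 state as the exception. At least 7 of 10 states past the limit on the lower side was found for 5.94% of the 2289 genes with 50 UMIs or more in every state. States of a library are not replicates of each other.

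In the Bglap state, where both are highest, P4ha1 was at 138 CPM (113 to 167) in Lipo-Clo and 242 CPM (202 to 288) in Lipo-PBS, a log2 ratio of -0.81, and Plod2 at 607 CPM (553 to 665) and 720 CPM (649 to 795), a log2 ratio of -0.25 (-0.44 to -0.05).

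Serpinh1 was higher in Lipo-Clo in 10 of 10 states, from 0.08 in the Ctnnd2 state to 0.52 (1723 and 1206 CPM) in the Col14a1 state. Fkbp10 was higher in 10 of 10 too, from 0.04 in the Bglap state to 0.61 (191 and 125 CPM) in the Dio2 state. The interval left out 0 in 9 of the 10 states for Serpinh1 but in only 3 for Fkbp10. A higher level in 10 of 10 states was common, being found for 21.6% of the 2289 genes. Pcolce was higher in 8 of 10 states, most in the Dio2 state, where its log2 ratio was 0.76 (824 and 486 CPM), and lower in the Tnn state at -0.19 (-0.27 to -0.10, from 907 and 1031 CPM). Bmp1 was higher in 6 of 10, most in the Col14a1 state, where it was 0.82 (212 and 120 CPM).

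The oxidases differed from state to state. Lox was higher in the Dio2 state, with 721 and 556 CPM and a log2 ratio of 0.37, and lower in the Ibsp state, with 102 and 174 CPM and one of -0.77, both with intervals that left out 0. Loxl1 was higher in Lipo-Clo in its own leading state, the Mfap5 state, with 644 CPM (596 to 695) and 542 CPM (511 to 574), a log2 ratio of 0.25, and lower in the Edil3 state at -0.40. Loxl2 was lowest against Lipo-PBS in the Tnn state, with 43.0 CPM (35.9 to 51.1) and 105 CPM (90.3 to 121), a log2 ratio of -1.29, and stood at 0.28 in the Mfap5 state with an interval that included 0.

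**Figure D5:**
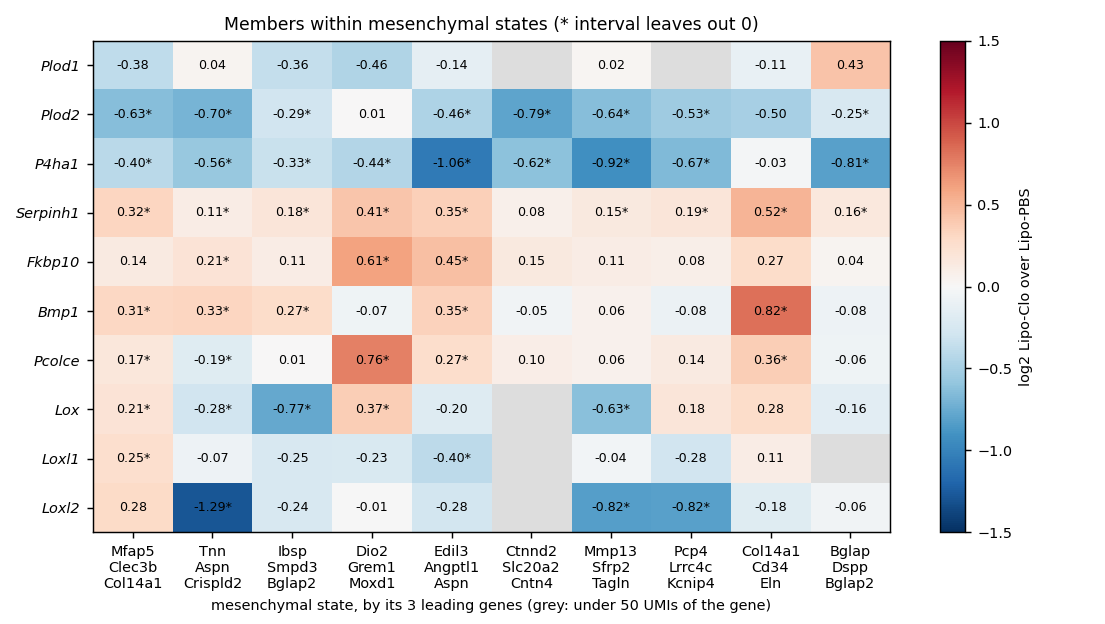
Log2 ratio of Lipo-Clo over Lipo-PBS of each member (rows) in each mesenchymal state (columns), red for higher and blue for lower in Lipo-Clo, with a star where the interval leaves out 0 and grey where the gene had fewer than 50 UMIs over both libraries. The P4ha1 row is blue and the Serpinh1 row red in all 10 states, while Lox runs from -0.77 to 0.37.

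Outside the mesenchyme the same contrast was read with the free RNA beside it. Serpinh1 was higher in Lipo-Clo endothelium (897 and 712 CPM, log2 ratio 0.33), perivascular cells (0.31), glia (0.56), cycling cells (0.61), macrophages (0.42) and T or NK cells (0.54), each with an interval that left out 0. It was at -0.10 (-0.21 to 0.02) in epithelium, -0.22 (-0.45 to 0.01) in neutrophils, -0.48 (-0.99 to 0.06) in B cells and -0.07 (-0.27 to 0.14) in erythroid cells. Per collagen UMI, Serpinh1 was above the mesenchymal value in endothelium, perivascular cells and glia of both libraries. In cycling cells and macrophages it was above only in Lipo-Clo. In T or NK cells it held that value in Lipo-Clo and was below it in Lipo-PBS, so its level there is read as background. Cycling cells had 2018 and 1321 CPM of Serpinh1 and 715 and 599 CPM of Pcolce, not far from the mesenchyme. How many of them were dividing mesenchymal cells was not tested, so they are not read as a class apart from it. Plod2 was lower in epithelium (-0.76), cycling cells (-0.54) and perivascular cells (-0.52), again with intervals that left out 0. In epithelium it was lower in both large clusters (53.1 and 96.6 CPM in the Ambn cluster, 25.2 and 58.8 CPM in the Lgals7 cluster). It was also lower in erythroid cells (-0.73, -1.40 to -0.07) and neutrophils (-0.95, -1.67 to -0.21). Per collagen UMI, Plod2 was above the mesenchymal value in epithelium and perivascular cells of both libraries. Plod2 held that value in cycling cells, and in erythroid cells and neutrophils, where its level is read as background. Its ratio of -0.83 in the summed endothelium was not seen in the Cdh5 cluster, with 36.8 and 38.1 CPM, while the Ccl21a cluster had 44.5 and 89.9 CPM. The Cdh5 cluster held 19 and 21 of the 24 and 87 endothelial Plod2 UMIs, so the Lipo-Clo value of the Ccl21a cluster rests on few UMIs. P4ha1 in epithelium had 66.8 and 78.9 CPM and a log2 ratio of -0.24 (-0.54 to 0.06). Lox, Loxl1 and Loxl2 in endothelium were at log2 ratios of -2.03, -1.73 and -2.58, from 8, 9 and 5 UMIs in Lipo-Clo and 67, 61 and 61 in Lipo-PBS, while the 3 collagens were at 6956 and 12827 CPM there and the Ccl21a cluster had 31 Lipo-Clo and 149 Lipo-PBS cells. What part the free RNA and this mixture had in those ratios was not tested.

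The other genes of the pathway, from lists that leave out the 10 members, gave the setting. Over all genes in use, 18.2% were lower and 14.5% higher past the limit. Of 12 prolyl and lysyl modification genes, 9 were in use in mesenchyme and 0 were past the limit in either direction, with a median log2 ratio of 0.15. P3h1 was at 0.19 and the partner of P4ha1 in the prolyl 4-hydroxylase tetramer, P4hb, at -0.04, while its alternative subunit P4ha2 was at 0.18, so that the low P4ha1 was not shared by them. Of 18 genes for folding and export of procollagen, 17 were in use, with a median of -0.09 and 1 lower past the limit, the export factor Mia2 at -0.49. The disulfide isomerase Pdia3 was at -0.28, and on the other side were the coat GTPase Sar1b at 0.27 and the prolyl isomerase Fkbp7 at 0.23. Among 8 proteinases and enhancers 1 was in use, Adamts2, which removes the N-propeptide, at -0.22.

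Of 7 listed genes for cross-links and fibril assembly 4 were in use, with a median of -0.52. Past the limit 3 were lower, namely Fmod (-0.62), Fn1 (-0.54) and Postn (-0.50), matrix proteins that bind collagen, while Lum was at 0.02. These and the other list ratios are of the summed mesenchyme, and the part of the mixture of states in them was not tested. Of 11 fibrillar collagen genes 10 were in use, with a median of -0.16. Past the limit 2 were lower (Col5a3 at -0.40 and Col5a2 at -0.36), beside 18.2% of all genes in use. On the other side 1 was higher (Col11a2 at 0.40), beside 14.5%, and Col1a1 was at 0.14 and Col1a2 at -0.12.

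Members known to respond to hypoxia include P4ha1, Plod2, Loxl2 and Lox, the last at a log2 ratio of -0.08. A list of such genes was therefore read beside them. Of its 15 genes found, 6 were in use, with a median log2 ratio of 0.18, 2 lower past the limit (Pfkfb3 at -0.62 and Vegfa at -0.32) and 0 higher, Higd1a being at 0.28 and Aldoa at 0.24. Of genes induced by tissue dissociation 3 of 15 were lower past the limit, beside 18.2% of all genes in use. By sign alone 13 of 15 were lower, beside 2409 of the 4696 genes in use. The median of the 15 was -0.16, with Atf3 at -0.78 and Jun at -0.42, and 0 were higher past the limit (Hspa1b at 0.23). The part of dissociation in the ratios of the members was not tested.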

How the data were processed

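The values are whole-number UMI counts for each gene in each called cell, deposited by the authors without normalization as 1 library per condition. The file headers name Cell Ranger 8.0.0, while the submitters' processing notes name Cell Ranger 3.1.0, Seurat 3.1.1 and the mouse genome GRCm39. Lipo-Clo held 9362 cells with 31053404 UMIs, and Lipo-PBS held 9653 with 30537834. Cells with fewer than 200 genes (473 and 748) or over 20% mitochondrial UMIs (3 and 11) were left out. Scrublet's automatic threshold marked 0 and 1 cells, so the highest scores were left out in its place (632 and 633 cells, 7.11% and 7.12%). Both libraries were clustered together in scanpy 1.11.5 (2000 variable genes, 30 principal components, Leiden resolution 1), and classes were named from a marker list. Of the 27 clusters, 3 stayed unnamed, 1 of which (42 Lipo-Clo and 710 Lipo-PBS cells, collagen at 3.94% of UMIs) was counted as mesenchyme in an alternative chosen after seeing the data. The mesenchyme was clustered again (20 components, resolution 0.6). The members were not kept out of the variable genes that formed the states. Osteoblast and odontoblast markers were read as 1 joint list against the others, a rule settled after seeing the data.

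UMIs were summed per library and class or state and divided by their total. A level carries an exact Poisson interval and a ratio an exact conditional binomial one, both at 95%. Genes were counted by size alone, past a log2 ratio of 0.32. Ratios in states and classes needed 50 UMIs over both libraries. Interval coverage was tested on simulated Poisson counts only, which hold no spread beyond counting error, so the test does not bear on such spread. Scaling by edgeR 4.0.16 and DESeq2 1.42.0 factors, other filters, resolutions and limits were tried as alternatives. Named genes are the members, up to 2 with the largest ratio in each direction of each list, and the 3 most alike over the states. Further genes were chosen after their values were seen (P4hb, P4ha2, Postn, Col1a1, Col1a2). The rule on ratios also gives P3h4 (0.18), Col27a1 (0.19) and Hspa1a (0.11), which are not named above. The members and lists were chosen with earlier results of these data known. The reference table of promoters is on GRCm38.p6, not the build of the counts, and gives sequence only.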

Additional observations from a re-analysis of the deposited data

Results flagged for a closer look

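Some ratios of Lipo-Clo over Lipo-PBS went against the same gene's ratio elsewhere, with intervals for counting error on opposite sides of 0. With 1 library per condition the differences between them were not tested.

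Lox had a log2 ratio of 0.37 in the dental follicle-like Dio2 state and -0.77 in the osteoblast- or cementoblast-like Ibsp state, beside -0.08 in the summed mesenchyme. Pcolce was at -0.53 in endothelium, -0.37 in epithelium and -0.79 in neutrophils, beside 0.15 in mesenchyme, and Fkbp10 was at -0.86 in neutrophils, beside 0.28. Per collagen UMI, Pcolce held the mesenchymal value in endothelium and neutrophils of both libraries and in Lipo-PBS epithelium. It was below that value in Lipo-Clo epithelium. Fkbp10 held it in neutrophils of both libraries. By the reading used above, these levels are background. The collagen level was also lower in Lipo-Clo in those classes, being 6956 CPM in Lipo-Clo and 12827 in Lipo-PBS endothelium, 10481 and 12750 in epithelium, and 8807 and 16846 in neutrophils, where the median log2 ratio over 4169 genes was -0.35. In the Cdh5 endothelial cluster alone, Pcolce was at 62.0 CPM (42.4 to 87.5) in Lipo-Clo and 81.6 CPM (59.5 to 109) in Lipo-PBS. The Ccl21a endothelial cluster had 31 and 149 cells. The part of the collagen level and of this cell mixture in these ratios was not tested.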

How the results depend on the processing

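No paired analysis was possible because there were no replicate numbers to pair, with 1 library a condition. Over 16 alternative settings P4ha1, Plod2 and Loxl2 stayed lower and Serpinh1, Fkbp10 and Pcolce stayed higher in Lipo-Clo mesenchyme, P4ha1 between -0.61 and -0.44 and Plod2 between -0.45 and -0.26, the latter inside the limit with doublets kept, at Leiden resolution 2 and with the unnamed collagen-rich cluster counted as mesenchyme. Among the 16, counting all genes with at least 20 UMIs left the member ratios unchanged by construction. The edgeR and DESeq2 factors, other totals and collagen UMIs each shifted all members by the same amount. Neither kind is an independent check of a sign. Loxl1 turned to 0.032 with the same state weights in both libraries and to 0.10 with states at resolution 1. It was -0.03 with states formed without the members, the listed processing and cross-linking genes and all collagen genes. The last pair of settings was chosen after seeing the data. The count of members lower past the limit was 2 under either of the first 2 mixtures, 1 at a limit of 1.5-fold and 0 at 2-fold, and their median was 0.014 and 0.049 under these mixtures. The count higher past the limit was 2 with cells thinned to 1000 UMIs, with doublets kept, at Leiden resolution 2, and with the unnamed collagen-rich cluster counted as mesenchyme. Lox ranged from -0.14 to 0.035. Of 40 alternative mesenchymal levels, 23 lay outside the interval of the reported one. Depth limits Plod1 most, and the spread between mice is not covered.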
